A study of Schizosaccharomyces pombe with 6 samples.

Results

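The fission yeast genes *hsp16* (SPBC3E7.02c), *hsp20* (SPCC338.06c), *hsp9* (SPAP8A3.04c) and *hsp104* (SPBC16D10.08c) were picked by name from 7008 listed genes, and all 4 had a value in every library. RNAseq was performed once per condition in 6 conditions, so there are no replicates and no test: a difference below is a ratio of 2 libraries, and the spread between cultures is unknown. Wild type cells held at 36°C for 15 minutes after growth at 24°C, cells without *mas5* (*mas5Δ*, labelled mas5D, 24°C) and cells without *ssa2* (*ssa2Δ*, labelled ssa2D, 24°C) were each set against 1 library of unstressed wild type cells at 24°C, all in rich medium (YES in the labels, YE in the study's methods). Cells with the strong, thiamine-repressed *nmt1* promoter in place of the *hsf1* promoter (*nmt1:hsf1*, 24°C, induced for 20 hours) were set against wild type cells at 24°C, both in minimal medium without thiamine (labelled MM Thi-). Mas5 is an Hsp40 co-chaperone, Ssa2 an abundant cytosolic Hsp70 and Hsf1 the heat shock transcription factor. Promoter replacement gives more Hsf1 for many hours at low temperature, so it models the amount of the factor and not a temperature shift. Levels are FPKM, fragments mapped per kilobase of transcript and scaled for sequencing depth, which allows genes of different length to be compared. Each pair of libraries was scaled on its own, and the read depth behind the values is unknown.

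Small heat shock proteins bind partly unfolded proteins and hold them in a state from which they can be refolded. They share an alpha-crystallin domain and form large assemblies without using ATP. Hsp104 is a ring-shaped ATPase that pulls proteins out of aggregates together with the Hsp70 system. Hsp9 is a very small protein related to Hsp12 of budding yeast, and despite its name it is not an alpha-crystallin protein. In yeasts, Hsf1 binds heat shock elements, which are repeats of a unit of 3 bases in alternating orientation with 2 bases between units. A second stress pathway, the MAP kinase Sty1 with the transcription factor Atf1, acts through sites with the core TGACGT.

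Upstream sequences of the 4 genes are shown because they differ in these elements. Each run covers 150 bases, 5′ to 3′ on the strand of the gene, from the RefSeq assembly ASM294v3, whose chromosome I and III lengths equal the last coordinates in the deposited files. Runs end at the base before the annotated transcript start. For *hsp104* the run ends 51 bases earlier, where the transcript of the deposited files starts. Capitals mark the 3-base units of a 2-unit element (GAANNTTC or TTCNNGAA) or of a 3-unit element (GAANNTTCNNGAA or TTCNNGAANNTTC) with at most 1 mismatch.
hsp16, chrII:2660993-2661142, minus strand: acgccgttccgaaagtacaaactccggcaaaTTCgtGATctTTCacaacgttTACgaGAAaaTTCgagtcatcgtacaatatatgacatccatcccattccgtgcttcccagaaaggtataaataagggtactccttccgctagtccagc
hsp20, chrIII:1364968-1365117, plus strand: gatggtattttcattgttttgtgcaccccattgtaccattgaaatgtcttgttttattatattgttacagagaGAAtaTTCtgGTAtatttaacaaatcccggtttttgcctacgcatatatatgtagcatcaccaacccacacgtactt
hsp9, chrI:5320677-5320826, minus strand: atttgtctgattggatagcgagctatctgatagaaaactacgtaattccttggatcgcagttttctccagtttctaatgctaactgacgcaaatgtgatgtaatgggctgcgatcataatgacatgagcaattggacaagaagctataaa
hsp104, chrII:3615321-3615470, minus strand: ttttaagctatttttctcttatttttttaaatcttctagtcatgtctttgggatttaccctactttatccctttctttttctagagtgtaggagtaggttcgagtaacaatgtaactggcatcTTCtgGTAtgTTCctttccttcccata

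All motifs were searched on both strands from 250 bases before to 50 bases after the RefSeq start of 5111 protein-coding nuclear genes. The head-to-head element GAANNTTC was found in *hsp16*, starting 93 bases before the start, and in *hsp20*, starting 77 bases before it. It occurred in 11.1% of all windows, and the tail-to-tail element TTCNNGAA, found in none of the 4 genes, in 10.2%. No window of the 4 genes held a perfect 3-unit element, which 0.470% of all windows did. With 1 mismatch allowed, *hsp16* held a 3-unit element starting at 119 and another at 98 bases before the start, the second containing its 2-unit element. *hsp20* then held one at 77 bases, again containing the 2-unit element, and *hsp104* one at 78 bases, against 10.7% of all windows. The 300-base window of *hsp9* held none of these forms, and TGACGT, present in 5.91% of windows, was found in none of the 4 genes. A match here is a description of letters and not a mapped binding site.

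Of the gene models, *hsp16* (chrII:2660139-2660992, minus strand) and *hsp104* (chrII:3612265-3615269, minus strand) were each alone in their locus in the deposited tables. *hsp20* (chrIII:1365118-1366139, plus strand) was grouped in 1 locus with *naa15*, an N-terminal acetyltransferase subunit. *hsp9* (chrI:5319957-5320676, minus strand) was grouped with *ski7* and with the non-coding RNA SPNCRNA.1071, which overlaps its start. All 4 genes have a single exon, and they encode 143, 139, 68 and 905 amino acids for *hsp16*, *hsp20*, *hsp9* and *hsp104*. Hsp16 and Hsp20 were identical at 50 of 135 aligned residues (37.0%), and Hsp104 and its mitochondrial relative Hsp78 at 382 of 803 (47.6%). No stretch of 50 bases, the read length, in any of the 4 transcripts occurred elsewhere in the genome without a mismatch. Copies with mismatches were not searched. RefSeq annotates non-coding RNAs that overlap *hsp9* and *hsp104*. The library preparation is not described as keeping strand, so reads from the 2 strands cannot be told apart there.

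The targeted genes were checked against the labels first. *mas5* was at 36.3 FPKM in *mas5Δ* cells against 470 FPKM in wild type. *ssa2* was at 55.0 FPKM in *ssa2Δ* cells against 2960 FPKM in wild type. The value columns carry no sample names, and in the minimal medium table their order was taken from the other tables, where wild type comes first. Under that order *hsf1* stood at 922 FPKM in *nmt1:hsf1* cells and 93.4 FPKM in wild type, a 9.87-fold difference, while *hsf1* differed by at most 1.22-fold in the rich medium comparisons. *nmt1*, the thiamine-repressed gene, was at 5778 FPKM in *nmt1:hsf1* cells and 24273 FPKM in wild type in minimal medium, and between 20.5 and 23.1 FPKM in the rich medium libraries. The wild type library at 24°C entered 3 tables with values that differ by 1 factor per table (1.13 in the *mas5Δ* table and 1.02 in the *ssa2Δ* table, relative to the heat table).

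*hsp16*, a small heat shock protein gene, was at 19821.5 FPKM in heat-shifted cells against 68.1 FPKM in wild type at 24°C. It was at 1069 FPKM in *mas5Δ* cells against 76.6 FPKM in wild type. In *ssa2Δ* cells it was at 6733 FPKM, against 69.1 FPKM in wild type. Thus the gene was the second most abundant transcript 15 minutes after the shift and the fourth in *ssa2Δ* cells, while in unstressed wild type cells it stood at place 1750 of 6510 by level. In minimal medium *hsp16* was at 12411 FPKM in *nmt1:hsf1* cells, where it was the third most abundant transcript, and at 165 FPKM in wild type. The ratios were 291-fold on heat shift, 13.9-fold in *mas5Δ*, 97.4-fold in *ssa2Δ* and 75.2-fold in *nmt1:hsf1* cells (log2 of 8.19, 3.80, 6.61 and 6.23). In each of the 4 comparisons this was the highest ratio among the 4 genes. In RNA from a whole culture, more cells with a transcript and more transcript per cell cannot be told apart.

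*hsp20*, the other gene of the alpha-crystallin family, had smaller ratios than *hsp16* in every comparison. Its level was 324 FPKM in heat-shifted cells and 55.4 FPKM in wild type at 24°C. In *ssa2Δ* cells the level was 296 FPKM, against 56.3 FPKM in wild type. In *mas5Δ* cells *hsp20* was at 86.6 FPKM, against 62.4 FPKM in wild type. In minimal medium it was at 267 FPKM in *nmt1:hsf1* cells and 102 FPKM in wild type. The ratio of *hsp16* to *hsp20* was 61.3 in heat-shifted cells, 12.3 in *mas5Δ* and 22.8 in *ssa2Δ* cells, against 1.23 in wild type at 24°C, where both genes were at nearly the same level. It was 46.5 in *nmt1:hsf1* cells and 1.61 in wild type in minimal medium. The log2 ratios of *hsp20* were 2.55 on heat shift, 0.47 in *mas5Δ*, 2.39 in *ssa2Δ* and 1.38 in *nmt1:hsf1* cells. The *mas5Δ* value, 1.39-fold, stayed within 2-fold. *naa15*, grouped with *hsp20* in 1 locus, had log2 ratios between -0.50 and -0.10 in the 4 comparisons.

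*hsp9* had the highest basal level of the 4 genes. It was at 16750 FPKM in heat-shifted cells against 480 FPKM in wild type at 24°C, and 6906 FPKM in *mas5Δ* cells against 541 FPKM in wild type. The *ssa2Δ* library had 4042 FPKM against 488 FPKM in wild type. In minimal medium the gene was at 14515 FPKM in *nmt1:hsf1* cells and already at 5135 FPKM in wild type, where it was the transcript at place 16 of 6441 by level. The ratios were 34.9-fold on heat shift, 12.8-fold in *mas5Δ*, 8.29-fold in *ssa2Δ* and 2.83-fold in *nmt1:hsf1* cells (log2 of 5.12, 3.67, 3.05 and 1.499). *hsp9* was thus one of the 5 most abundant transcripts in heat-shifted, *mas5Δ* and *nmt1:hsf1* cells. Its locus neighbour SPNCRNA.1071 had 22.6 FPKM in heat-shifted cells and 1.60 FPKM in wild type, and *ski7*, a gene of RNA decay, had log2 ratios between -0.06 and 0.57 in the 4 comparisons. These levels are small beside those of *hsp9*, and how reads in the overlap of *hsp9* and SPNCRNA.1071 were divided was not tested.

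*hsp104*, the disaggregase gene, was the lowest of the 4 genes in unstressed wild type cells in rich medium and was above *hsp20* in every other library. Its level was 2907 FPKM in heat-shifted cells and 43.2 FPKM in wild type at 24°C. It was 526 FPKM in *mas5Δ* cells against 48.7 FPKM in wild type. The *ssa2Δ* library had 1000.1 FPKM against 43.9 FPKM in wild type. These are ratios of 67.2-fold on heat shift, 10.8-fold in *mas5Δ* and 22.8-fold in *ssa2Δ* cells (log2 of 6.07, 3.43 and 4.51). In minimal medium *hsp104* was at 280 FPKM in *nmt1:hsf1* cells and 208 FPKM in wild type, a ratio of 1.34-fold (log2 of 0.43). It was thus within 2-fold although *hsf1* itself was 9.87-fold higher. In cells overexpressing Hsf1 the paper reports vastly increased Hsp104 protein and GFP driven by *hsp104* regulatory elements. Those are fluorescence measures, and how they relate to this RNA ratio was not tested.

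**Figure D1:**
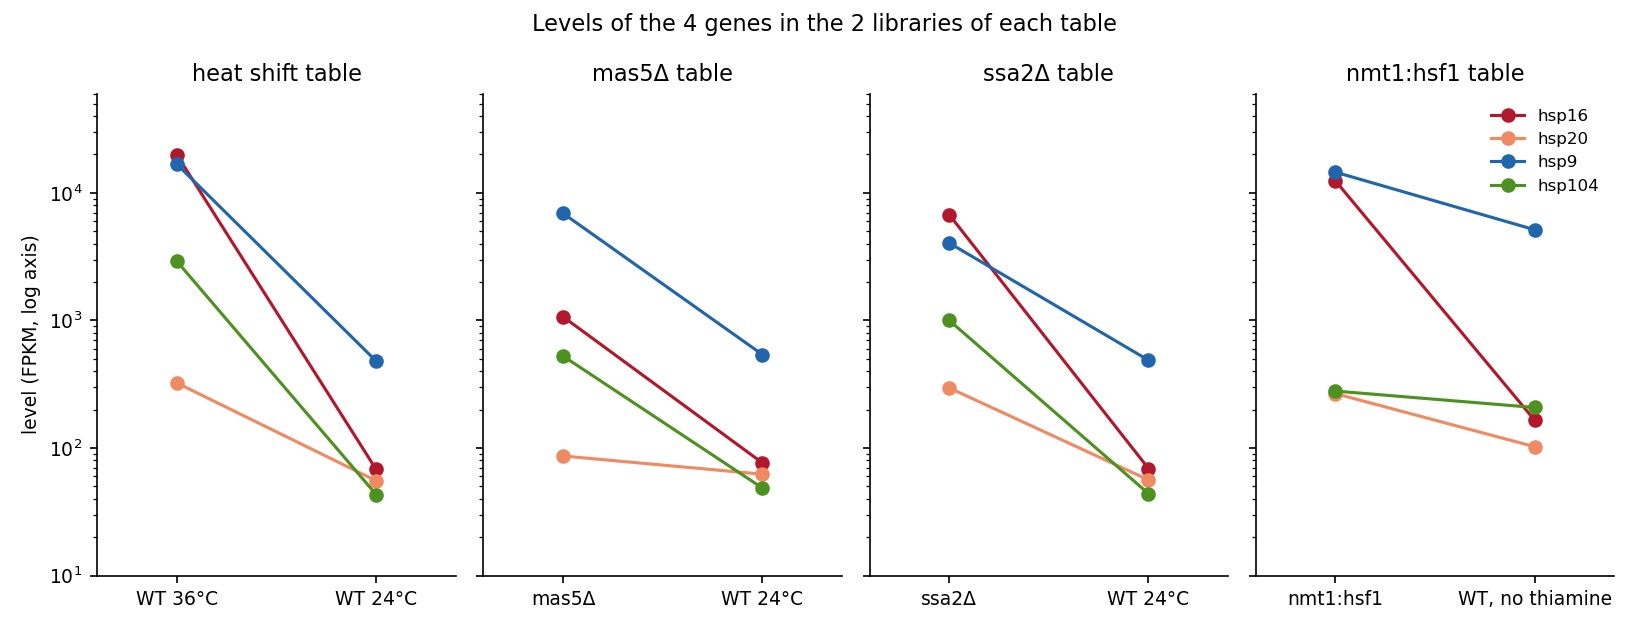
Levels of hsp16, hsp20, hsp9 and hsp104 in FPKM on a log axis, with 1 panel per deposited table and 1 point per library; each line joins the stressed or mutant library on the left to its wild type library on the right. The hsp16 line is the steepest in every panel, hsp20 is nearly flat in the mas5Δ panel (86.6 against 62.4 FPKM), and hsp104 is nearly flat in the nmt1:hsf1 panel (280 against 208 FPKM).

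On heat shift all 4 genes were more than 2-fold higher and 3 of them more than 8-fold higher. Of the 6426 genes with a ratio in that table, 14.1% were more than 2-fold higher, 10.3% more than 2-fold lower and 2.4% more than 8-fold higher. After rescaling to the summed FPKM, 12.4% were more than 2-fold higher and 12.9% more than 2-fold lower. By ratio, *hsp16* was at place 10, *hsp104* at 21, *hsp9* at 41 and *hsp20* at 214 of the 6426 genes. The median log2 ratio of the 4 genes was 5.60, beside 0.01 over all genes.

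In *mas5Δ* cells 3 of the 4 genes were more than 2-fold higher, and the same 3 more than 8-fold higher, with *hsp20* as the exception. Over 6465 genes 7.25% were more than 2-fold higher, 5.15% more than 2-fold lower and 0.882% more than 8-fold higher. After rescaling to the summed FPKM, the first of these shares was 11.4% and the second 2.58%. The ratios of *hsp16*, *hsp9* and *hsp104* were at places 30, 34 and 42 and lay within 1.29-fold of each other, unlike in the heat-shifted cells, where the same 3 genes spread over 8.35-fold. *hsp20* was at place 1213. The median log2 ratio of the 4 genes was 3.55, beside 0.04 over all genes.

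In *ssa2Δ* cells all 4 genes were more than 2-fold higher and 3 more than 8-fold higher, while of 6420 genes 10.9% were more than 2-fold higher, 4.14% more than 2-fold lower and 1.74% more than 8-fold higher. *hsp9* was the lowest of those 3, just above the 8-fold line at 8.29-fold. The order of the ratios was that of the heat-shifted cells, with *hsp16* at place 16, *hsp104* at 44, *hsp9* at 108 and *hsp20* at 184. The median log2 ratio of the 4 genes was 3.78, beside 0.05 over all genes. The rich medium comparisons share 1 wild type library, so their ratios are not independent of each other.

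In *nmt1:hsf1* cells 3 of the 4 genes were more than 2-fold higher and *hsp16* alone more than 8-fold higher. Ratios were much more widely spread in this table: of 6335 genes 27.1% were more than 2-fold higher, 16.7% more than 2-fold lower and 5.62% more than 8-fold higher. The first share was 34.96% and the second 10.8% after rescaling to the summed FPKM. *hsp16* was at place 37, whereas *hsp9* was at 1155, *hsp20* at 1286 and *hsp104* at 2540. The values of *hsp9* and *hsp20* (2.83-fold and 2.61-fold) thus stood inside the bulk of the table, with 18.2% of genes at or above *hsp9* and 20.3% at or above *hsp20*. The median log2 ratio of the 4 genes was 1.44, beside 0.09 over all genes.

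**Figure D2:**
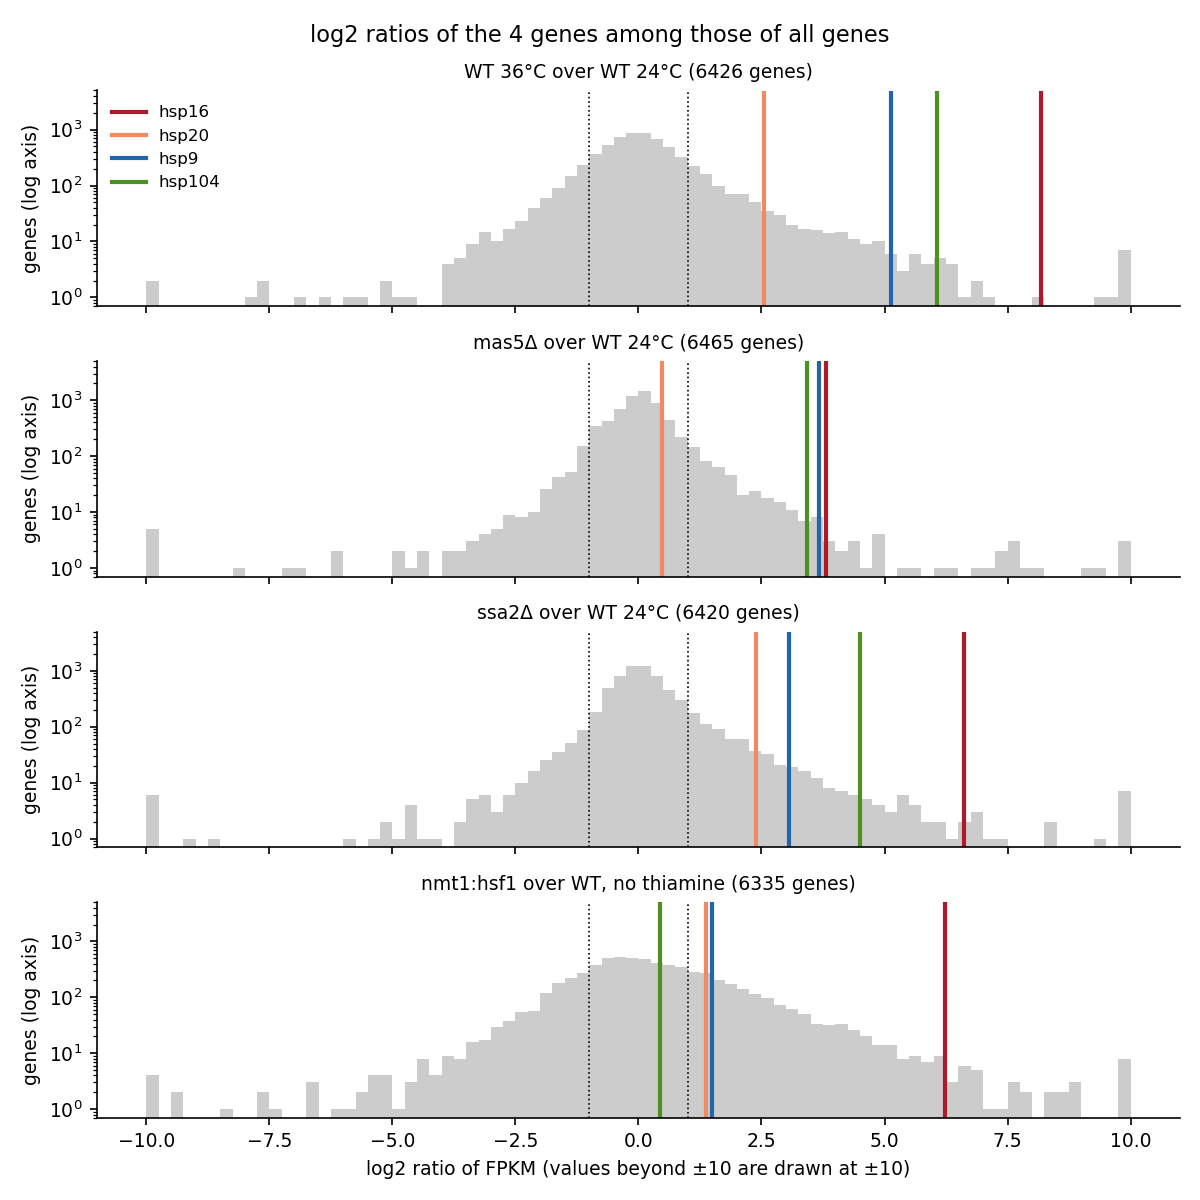
Log2 ratios of FPKM for all genes with a ratio (gray histograms, number of genes on a log axis) in the 4 comparisons, with vertical coloured lines at hsp16, hsp20, hsp9 and hsp104 and dotted lines at 2-fold. In the heat shift panel all 4 lines lie right of the dotted line, hsp20 lies inside the dotted lines in the mas5Δ panel, and in the nmt1:hsf1 panel hsp16 stands apart from the other 3 lines, at 6.23 against 0.43 to 1.499.

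The rich medium libraries could be put on 1 scale through the wild type library they share, which allows the mutants to be set beside heat-shifted cells. *hsp16* was at 949 FPKM in *mas5Δ* cells on the scale of the heat table, 4.79% of its level in heat-shifted cells, and at 6629 FPKM in *ssa2Δ* cells, 33.4% of it. *hsp104* reached 16.1% of the heat-shifted level in *mas5Δ* and 33.9% in *ssa2Δ* cells. *hsp20* reached 23.8% in *mas5Δ* and 90.1% in *ssa2Δ* cells. For these 3 genes the *ssa2Δ* library was higher than the *mas5Δ* library, 6.98-fold for *hsp16*, 2.11-fold for *hsp104* and 3.79-fold for *hsp20*. *hsp9* had the opposite order, with 36.6% of the heat-shifted level in *mas5Δ* and 23.8% in *ssa2Δ* cells, a 1.54-fold higher level in *mas5Δ*. The sizes of these differences depend on the scaling. As a share of summed FPKM, *hsp20* held 0.0313% in *ssa2Δ* and 0.0312% in heat-shifted cells. *hsp104* held 0.106% in *ssa2Δ* and 0.0593% in *mas5Δ* cells. By that share each gene kept its order between the mutants.

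The wild type library in minimal medium already held more of these transcripts than did wild type cells in rich medium. Both libraries come from tables that were scaled separately, so the values are set side by side across tables. Wild type cells had 5135 FPKM of *hsp9* in minimal medium without thiamine and 480 FPKM in rich medium, a 10.7-fold difference that ranked at place 44 of 6379 genes. *hsp104* was at 208 FPKM in minimal medium and 43.2 FPKM in rich medium, 4.81-fold higher at place 126. *hsp16* was 2.43-fold higher and *hsp20* 1.85-fold higher, at places 395 and 728, and the median log2 ratio over all genes was 0.13. Medium, culture and table differ together here and cannot be told apart. Set against rich medium wild type cells, *nmt1:hsf1* cells had 30.2-fold more *hsp9*, 6.46-fold more *hsp104*, 182-fold more *hsp16* and 4.82-fold more *hsp20*. Against heat-shifted cells the same library was 1.15-fold lower in FPKM for *hsp9*, 1.21-fold lower for *hsp20*, 1.60-fold lower for *hsp16* and 10.4-fold lower for *hsp104*. As a share of summed FPKM, *hsp9* (1.90% against 1.61%) and *hsp20* (0.0349% against 0.0312%) were instead higher in *nmt1:hsf1* cells. By that share *hsp16* (1.62% against 1.91%) and *hsp104* (0.0366% against 0.280%) remained lower, so the small differences depend on the scaling. Thus for 3 genes the *nmt1:hsf1* and heat-shifted libraries were within 2-fold of each other, and *hsp104* was the exception.

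The 4 genes together held 3.84% of the summed FPKM in heat-shifted cells, 0.969% in *mas5Δ* and 1.28% in *ssa2Δ* cells, against 0.0674% in wild type at 24°C. In minimal medium they held 3.59% in *nmt1:hsf1* cells and 0.573% in wild type. *hsp16* and *hsp9* made up nearly all of it, with 1.91% and 1.61% in heat-shifted cells and 1.62% and 1.90% in *nmt1:hsf1* cells. In *mas5Δ* cells most of the share was *hsp9* (0.779%, beside 0.121% for *hsp16*), and in *ssa2Δ* cells most was *hsp16* (0.713%, beside 0.428% for *hsp9*).

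**Figure D3:**
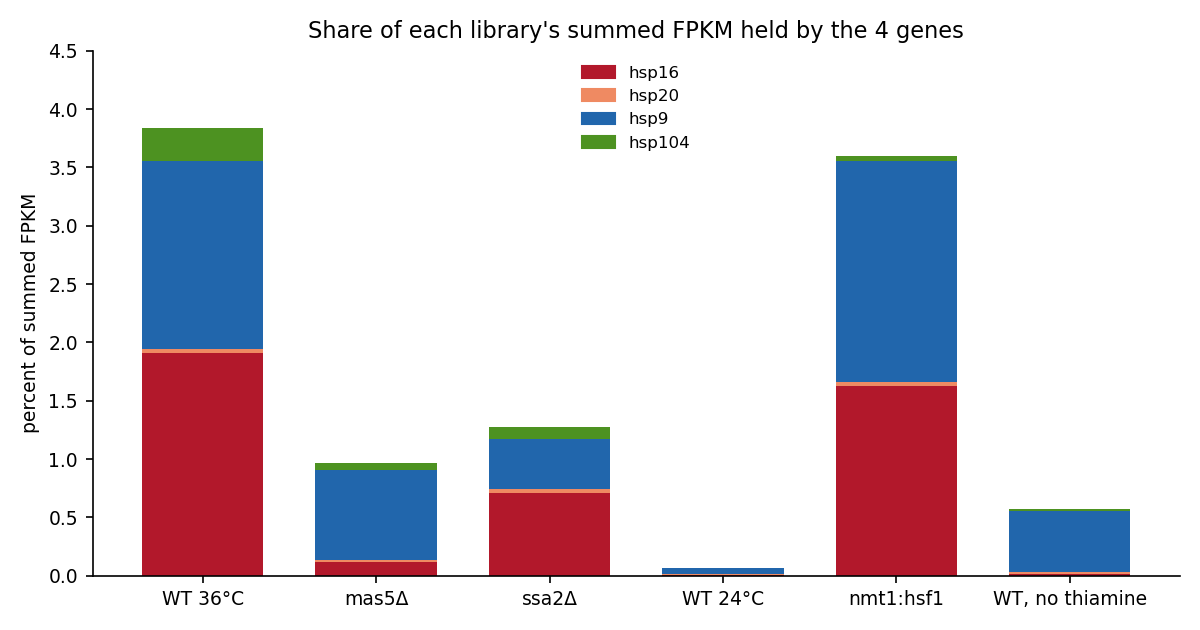
Percent of each library's summed FPKM held by hsp16, hsp20, hsp9 and hsp104, as stacked bars that start at 0, with 1 bar per library (the unstressed wild type bar in rich medium is from the ssa2Δ table). Heat-shifted and nmt1:hsf1 cells reach 3.84% and 3.59%, and hsp9 fills most of the mas5Δ bar while hsp16 fills most of the ssa2Δ bar.

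Other chaperone and stress genes were taken from 6 lists of 43 genes in all, none of them one of the 4 genes. Of the 43 genes, 28 were more than 2-fold higher and 1 more than 2-fold lower on heat shift, 17 and 1 in *mas5Δ*, 23 and 1 in *ssa2Δ*, and 13 and 3 in *nmt1:hsf1* cells. Over all genes 14.1% were more than 2-fold higher on heat shift, 7.25% in *mas5Δ*, 10.9% in *ssa2Δ* and 27.1% in *nmt1:hsf1* cells, so the 13 of 43 genes in *nmt1:hsf1* cells are near the share of all genes there. The shares of all genes more than 2-fold lower were 10.3%, 5.15%, 4.14% and 16.7% in the same order. Of the 43 genes, the single lower gene in each mutant was the deleted gene itself.

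The Hsp70 system works with Hsp104 and with small heat shock proteins in refolding. Of its 9 genes, 6 were more than 2-fold higher on heat shift, and 4 in each of the other comparisons, beside 14.1% of all genes on heat shift, 7.25% in *mas5Δ*, 10.9% in *ssa2Δ* and 27.1% in *nmt1:hsf1* cells. In *nmt1:hsf1* cells 3 of the 9 were more than 2-fold lower, beside 16.7% of all genes. After rescaling to the summed FPKM, 5 were higher in each of *mas5Δ*, *ssa2Δ* and *nmt1:hsf1* cells, beside 11.4%, 11.7% and 34.96% of all genes. The count of lower genes in *nmt1:hsf1* cells was then 2, beside 10.8% of all genes. The highest was *ssa1*, a second cytosolic Hsp70, in all 4 comparisons, with log2 ratios of 6.53 on heat shift, 3.93 in *mas5Δ*, 4.95 in *ssa2Δ* and 3.31 in *nmt1:hsf1* cells. The *ssa1* ratio was above that of *hsp104* in each comparison, and in *mas5Δ* cells also above that of *hsp16*. *sks2*, a ribosome-associated Hsp70, was the lowest of the list on heat shift (log2 of -1.01), and *bag102*, a nucleotide exchange factor gene, the lowest in *nmt1:hsf1* cells (-2.40). In the mutants the lowest was the deleted gene, followed by *sks2* (-0.64 in *mas5Δ* and -0.61 in *ssa2Δ* cells). The median log2 ratio of the list was 1.46 on heat shift, 0.87 in *mas5Δ*, 0.98 in *ssa2Δ* and 0.83 in *nmt1:hsf1* cells, below that of the 4 genes in each comparison. Those counts and medians include the deleted gene. Without it, the median of the remaining 8 genes was 1.03 in *mas5Δ* and 1.08 in *ssa2Δ* cells.

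Of the 6 Hsp90 system genes, 5 were more than 2-fold higher on heat shift, 3 in *mas5Δ*, 5 in *ssa2Δ* and 2 in *nmt1:hsf1* cells, and none was more than 2-fold lower. The 2 of 6 in *nmt1:hsf1* cells stand beside 27.1% of all genes, and the other counts of higher genes beside 14.1%, 7.25% and 10.9%. Of all genes, 10.3% were more than 2-fold lower on heat shift, 5.15% in *mas5Δ*, 4.14% in *ssa2Δ* and 16.7% in *nmt1:hsf1* cells. The co-chaperone *sti1* was the highest on heat shift and in *ssa2Δ* cells (3.32 and 2.13), *wos2*, the p23 homolog, in *mas5Δ* (1.65) and *cdc37* in *nmt1:hsf1* cells (2.57). The lowest was *git7* on heat shift and in *ssa2Δ* cells (0.59 and 0.34), *cdc37* in *mas5Δ* (0.27) and *aha1* in *nmt1:hsf1* cells (0.05). The medians were 2.54, 0.96, 1.70 and 0.50 in the same order of comparisons.

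Of the 6 mitochondrial chaperone genes, 5 were more than 2-fold higher on heat shift, 1 in *mas5Δ*, 4 in *ssa2Δ* and 1 in *nmt1:hsf1* cells, beside 14.1%, 7.25%, 10.9% and 27.1% of all genes. After rescaling to the summed FPKM the count in *nmt1:hsf1* cells was 2 of 6, beside 34.96% of all genes. *hsp78*, the mitochondrial relative of *hsp104*, was the highest of this list in each comparison. It was at 2247 FPKM in heat-shifted cells against 76.9 FPKM in wild type, 466 FPKM in *mas5Δ* cells against 86.6 FPKM, 792 FPKM in *ssa2Δ* cells against 78.1 FPKM, and 355 FPKM in *nmt1:hsf1* cells against 154 FPKM in wild type. Its log2 ratios (4.87, 2.43, 3.34 and 1.21) were below those of *hsp104* in the rich medium comparisons and above it in *nmt1:hsf1* cells. *mge1*, the nucleotide exchange factor of the mitochondrial Hsp70, was the lowest of the list in each comparison (-0.28, -0.48, 0.37 and -0.82), and the medians were 1.46, 0.35, 1.08 and 0.45.

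The 8 subunits of the CCT chaperonin, which folds actin and tubulin, stayed within 2-fold in all 4 comparisons and below each of the 4 heat shock genes. Most genes also stayed within 2-fold. Of all genes, 14.1% were more than 2-fold higher on heat shift, 7.25% in *mas5Δ*, 10.9% in *ssa2Δ* and 27.1% in *nmt1:hsf1* cells. In the same order, 10.3%, 5.15%, 4.14% and 16.7% were more than 2-fold lower. The medians of the 8 subunits were -0.20, -0.20, -0.34 and -0.58, and the *mas5Δ* median was 0.09 after rescaling to the summed FPKM. The highest subunit was *cct2* on heat shift and in *ssa2Δ* (0.07 and 0.04), *cct6* in *mas5Δ* (-0.05) and *cct5* in *nmt1:hsf1* cells (0.06). The lowest was *cct4* on heat shift and in *ssa2Δ* (-0.51 and -0.66), *cct2* in *mas5Δ* (-0.40) and *cct7* in *nmt1:hsf1* cells (-0.77).

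Of the 5 Hsp31 family genes, which encode glyoxalase III type enzymes, 3 were more than 2-fold higher on heat shift, 1 in *mas5Δ*, 3 in *ssa2Δ* and 4 in *nmt1:hsf1* cells, beside 14.1%, 7.25%, 10.9% and 27.1% of all genes. After rescaling to the summed FPKM the count in *mas5Δ* was 3, beside 11.4% of all genes. *hsp3101* was the highest on heat shift, in *mas5Δ* and in *ssa2Δ* (4.13, 1.55 and 3.41) and *hsp3102*, at 12.1 FPKM in *nmt1:hsf1* cells and 1.46 FPKM in wild type, was the highest there (3.043). The lowest were *hsp3103* on heat shift and in *ssa2Δ* (-0.03 and 0.24), *hsp3104* in *mas5Δ* (-0.34) and *hsp3105* in *nmt1:hsf1* cells (-0.37). Several members are close to the lower end of detection, *hsp3102* being at 0.882 FPKM in wild type at 24°C. The medians were 1.42, 0.90, 2.19 and 2.29, so that this was the list whose median in *nmt1:hsf1* cells was above that of the 4 genes (1.44).

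All 9 genes of the Sty1-Atf1 stress list, which holds catalase, glutathione peroxidase, trehalose enzymes and *atf1* itself, were more than 2-fold higher on heat shift, 8 in *mas5Δ*, 7 in *ssa2Δ* and 2 in *nmt1:hsf1* cells, beside 14.1%, 7.25%, 10.9% and 27.1% of all genes. *ctt1*, the catalase gene, was the highest on heat shift (4.67), the calcium pump gene *cta3* in *mas5Δ* (4.08) and *nmt1:hsf1* cells (1.24), and the trehalose-phosphate synthase gene *tps1* in *ssa2Δ* (2.45). *atf1* was the lowest on heat shift and in *mas5Δ* (1.63 and 0.40), *cta3* in *ssa2Δ* (-0.72) and the trehalase gene *ntp1* in *nmt1:hsf1* cells (-0.78). The medians were 3.69, 1.33, 1.60 and -0.05, the last being 0.31 after rescaling to the summed FPKM. In wild type cells all 9 genes of this list were more than 2-fold higher in minimal than in rich medium, beside 9.52% of all genes, with a median log2 ratio of 1.94 across the separately scaled tables, while each of the other 5 lists had between 0 and 2 such genes. *ctt1* was at 260.4 FPKM in minimal and 27.2 FPKM in rich medium, and *tps1* at 649 and 124 FPKM. The *nmt1:hsf1* ratios of this list are set against this wild type library in minimal medium. Whether its levels bear on those ratios was not tested.

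**Figure D4:**
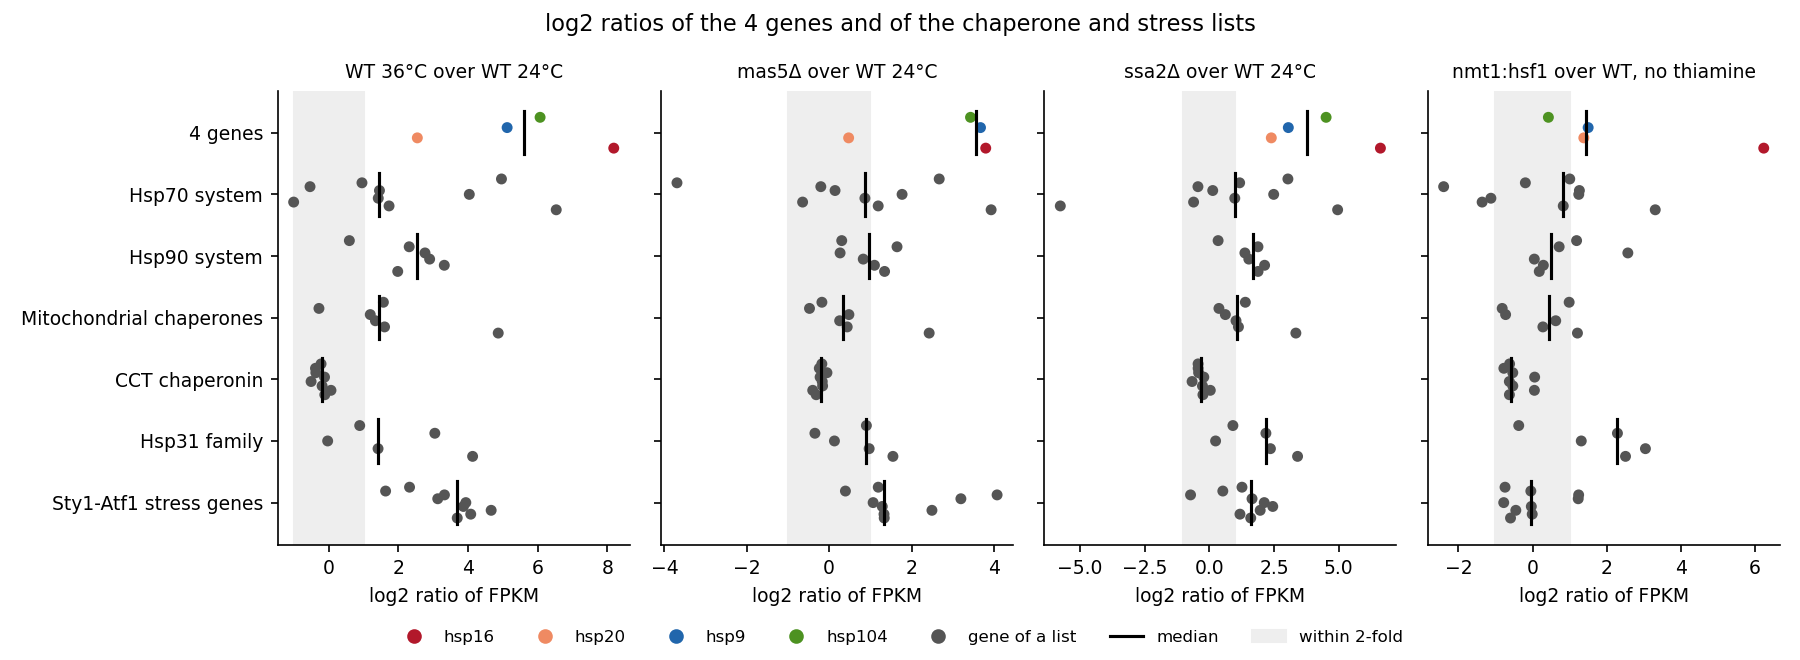
Log2 ratios of FPKM for hsp16, hsp20, hsp9 and hsp104 (coloured, top row) and for the genes of 6 chaperone and stress lists (dark gray), with a panel per comparison; black bars are medians and the gray band is within 2-fold. The lowest Hsp70 system points in the mas5Δ and ssa2Δ panels are the deleted genes (-3.69 and -5.75), the CCT points stay inside the band, and the Sty1-Atf1 median is 3.69 on heat shift and -0.05 in nmt1:hsf1 cells.

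The likeness of other genes to each of the 4 genes was measured as the root mean square difference over the 4 log2 ratios, among 4446 protein-coding genes whose mean reached 10 FPKM in each table. The genes nearest to *hsp104* were *rds1* (difference of 0.40), *mug35* (0.65), *rtc3* (0.84), *tsp0* (0.85) and SPBC30B4.09 (0.95). *rds1* had log2 ratios of 6.30, 3.64, 4.21 and 1.09 for heat shift, *mas5Δ*, *ssa2Δ* and *nmt1:hsf1*. The genes nearest to *hsp9* were *tsp0* (0.54), *psi1* (0.57), *ish1* (0.59), SPBC30B4.09 (0.61) and *hsp78* (0.67). Psi1 is a cytosolic Hsp40 and Ish1 a nuclear envelope protein. *tsp0* and SPBC30B4.09 are thus in both sets, and *hsp9* and *hsp104* themselves differed by 1.03.

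*hsp20* had the closest neighbours, the glutaredoxin gene *grx1* (0.28), *prl65* (0.30), the pyridoxal reductase gene *plr1* (0.36), *ubx3* (0.39) and the autophagy gene *atg9* (0.41). *grx1* had log2 ratios of 2.68, 0.91, 2.10 and 1.26 in the order given above. For *hsp16* no gene came near: the nearest was *ssa1* at 1.87, followed by *rtc3* (2.63), SPAC27D7.09c (2.77), *rds1* (2.99) and the agmatinase gene SPAC11D3.09 (3.01). The alpha-crystallin pair *hsp16* and *hsp20* differed by 4.59, the largest difference between any 2 of the 4 genes, and *hsp16* differed from *hsp104* by 3.27 and from *hsp9* by 3.33. Since *hsp16* was far from nearly all genes, these still placed *hsp104* at 8, *hsp9* at 11 and *hsp20* at 57 of 4445 genes by likeness to it. These differences rest on 4 ratios, 3 of which share a wild type library.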

How the data were processed

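The authors prepared oligo-dT selected libraries, sequenced single end reads of 50 bases, mapped them with TopHat and ran Cuffdiff of the Cufflinks module in Galaxy. For quality control the submitters' processing notes name FastQC and the paper's methods FastQ Groomer. They deposited FPKM values in 4 tables of 2 libraries each. Versions, genome build and annotation are not given in the sources used here. The deposited tables also hold the authors' fold changes, test statistics, p-values and significance marks, which were not used. Value columns are unnamed: the one equal up to a factor in 3 tables was taken as wild type at 24°C, and ratios as condition over wild type after the paper's supplementary labels.

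The log2 ratio of the 2 FPKM values was computed with no pseudocount where both were above 0 (Python 3.11.15, pandas 2.3.3) and checked on simulated data. Genes more than 2-fold apart were counted as higher or lower. Low values were not whole multiples of a common step, so reads could not be recovered. Of 7008 gene IDs, 6843 matched RefSeq, and 99.6% of 2231 nuclear genes alone in their locus shared at least 1 end with ASM294v3. The lower coordinate was the same for 64.5% of them and the upper coordinate for 61.5%. Annotated transcript ends thus often differ between the deposited values and RefSeq. Proteins were aligned globally with BLOSUM62 (gap open 11, extend 1; Biopython 1.88).

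The genes and lists were chosen with earlier results of these data known. Named genes are the 4 genes, the targeted genes, *hsp78*, the highest and lowest gene of each list in each comparison, and the 5 genes most like each of the 4. *naa15*, *ski7* and SPNCRNA.1071 were added as locus neighbours. Alternatives tried were a pseudocount of 0.1 or 1, centring, rescaling to the summed FPKM, other control libraries, other thresholds and filters, Pearson's r for likeness and a mismatch in motifs.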

Additional observations from a re-analysis of the deposited data

How the results depend on the processing

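No paired analysis was possible because each condition has 1 library. With the same control library, all 88 values of the log2 ratios under a pseudocount, centring, rescaling or the wild type values of the heat table stayed within 1.5-fold, the largest shift being 0.39. Rescaling to the summed FPKM moved all genes by 0.29 in *mas5Δ* and 0.36 in *nmt1:hsf1* cells. Over these settings the ratio of *hsp20* in *mas5Δ* ranged over 0.43 to 0.78 and that of *hsp104* in *nmt1:hsf1* over 0.34 to 0.82, within 2-fold throughout.

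The control library mattered more. With wild type in minimal medium as control, the heat shift log2 ratios were 6.91 (*hsp16*), 1.66 (*hsp20*), 1.71 (*hsp9*) and 3.81 (*hsp104*). In *mas5Δ* they were 2.69, -0.24, 0.43 and 1.34, and in *ssa2Δ* 5.35, 1.53, -0.35 and 2.27, so *hsp20* reversed in *mas5Δ* and *hsp9* in *ssa2Δ*. With wild type in rich medium as control, *nmt1:hsf1* cells gave 7.51, 2.27, 4.92 and 2.69. These values cross media and separately scaled tables. At a threshold of 4-fold or 8-fold, 1 of the 4 genes was called in *nmt1:hsf1* cells in place of 3. Of all genes there, 12.3% were more than 4-fold higher and 5.62% more than 8-fold higher. By Pearson's r over the 4 ratios, 0 of the 5 nearest genes were shared for any of the 4 genes, since r ignores the size of a change. The medium ratios stayed within 1.5-fold with either other table's wild type values. Where only genes with a mean of 10 FPKM or more were ranked, *hsp16* was at place 4 of 5111 on heat shift, 8 of 5186 in *mas5Δ*, 5 of 5156 in *ssa2Δ* and 22 of 5426 in *nmt1:hsf1* cells. Rescaling the 43 list genes to the summed FPKM, chosen after seeing the data, gave 21 in place of 17 genes more than 2-fold higher in *mas5Δ* and 16 in place of 13 in *nmt1:hsf1* cells. The share of all genes more than 2-fold higher rose as well, to 11.4% in *mas5Δ* and 34.96% in *nmt1:hsf1* cells. The 16 of 43 genes were thus again near the share of all genes.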
